A study of Homo sapiens with 6 samples.

Results

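The GAPDH binding sites on 5 mRNAs of myeloid and leukaemia regulators, LYN, PRTN3, CEBPA, MYC and NFKBIA, were examined in MOLM-13 cells, a cell line from a human acute myeloid leukaemia (AML). The 5 genes were chosen with earlier results of these data known, and their entries were taken by symbol. Of 1776 entries of the 3 peak lists, 8 carried these names, and the 5 genes were part of 947 genes named in any list. GAPDH (glyceraldehyde-3-phosphate dehydrogenase) was crosslinked to RNA in the cells and precipitated with a polyclonal antibody, and the RNA bound to it was sequenced (CLIP-seq). Cells were kept in normal glucose, in low glucose, a medium holding less glucose, or in galactose, which took the place of glucose, with 2 samples per condition and no other treatment or genetic change. The study asked whether the fuel of glycolysis changes the RNA that GAPDH binds.

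Each condition was represented by 1 list in which both samples had been joined. A list names places and genes, without counts, scores or strand, so the depth is unknown and neither a level of binding nor a spread between samples can be given. The normal glucose list held 704 entries at 495 distinct places, the low glucose list 623 at 484 and the galactose list 449 at 337, since a place over several genes is entered for each. A difference between lists is therefore a difference between 3 lists and carries no test, and a gene missing from a list may be bound below the calling threshold or weakly expressed in that medium, which cannot be told apart here. MOLM-13 is 1 cell line, and the findings describe no other AML cells.

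GAPDH is a glycolytic enzyme that also binds RNA, and it is best known in this role for AU-rich elements, short AUUUA-containing stretches of 3′UTRs that mark many mRNAs of oncogenes and cytokines for rapid decay. The 5 genes hold different posts in myeloid cells. NFKBIA encodes the inhibitor that holds NF-kappa-B in the cytoplasm, and LYN is a SRC family tyrosine kinase downstream of receptors of haematopoietic cells. CEBPA and MYC are transcription factors, the former needed for granulocyte differentiation and mutated in some AML, the latter a driver of growth and proliferation. PRTN3 (proteinase 3) is a serine protease stored in the primary granules of promyelocytes and neutrophils.

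Stretches of sequence show where the peaks lay on NFKBIA, CEBPA and PRTN3 (hg38, each 5′ to 3′ on the strand of the mRNA). The NFKBIA stretch runs from 15 nt before the start codon, in capitals, to the 3′ edge of its peaks (chr14:35404593-35404659, minus strand). The CEBPA stretch is the whole peak, and capitals mark the part spanned by crosslink sites (chr19:33301756-33301891, minus strand). The PRTN3 stretch joins both of its peaks, and capitals mark a TATAA and the start codon (chr19:840945-841047, plus strand).
NFKBIA: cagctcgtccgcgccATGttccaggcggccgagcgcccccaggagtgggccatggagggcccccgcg
CEBPA: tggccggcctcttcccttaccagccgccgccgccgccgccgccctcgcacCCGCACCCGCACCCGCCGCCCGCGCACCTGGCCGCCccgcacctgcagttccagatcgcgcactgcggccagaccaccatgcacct
PRTN3: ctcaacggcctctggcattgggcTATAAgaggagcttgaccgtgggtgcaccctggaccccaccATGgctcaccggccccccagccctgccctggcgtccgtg

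The peaks of different media that overlapped were merged into regions. The 5 genes gave 5 regions: 3 in low glucose alone (LYN, CEBPA and MYC), 1 in galactose and normal glucose (PRTN3) and 1 in all 3 media (NFKBIA). Of all 951 regions, 27.5% were found in low glucose alone, 3.47% in galactose and normal glucose without low glucose, and 11.0% in all 3 lists. Leaving aside tRNA and small RNA genes, 397 of the regions were in exons of protein coding genes. Of these, 36.8% were in low glucose alone, 4.03% shared by galactose and normal glucose only, and 6 regions (1.51%) in all 3, among them NFKBIA. With 5 regions, shares of this kind cannot be compared with those of the series.

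NFKBIA was the only gene of the 5 with a peak in all 3 media, and in each medium the site was the start codon. In galactose the peak lay at chr14:35404594-35404694 and was 101 nt wide. A peak of 101 nt stands for a lone crosslink site with 50 nt added on each side, so the site was position 35404644, the A of the start codon. In normal glucose the peak at chr14:35404593-35404693 gave position 35404643, the second base of the start codon (T in the DNA above, U in the RNA). In low glucose the peak at chr14:35404593-35404694 was 102 nt wide and held sites that spanned both positions. The 3 peaks thus shared 100 nt, and their sites differed by a nucleotide.

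The NFKBIA peaks covered the last 49 to 50 nt of the 5′UTR and the first 51 to 52 nt of the CDS, up to codon 17 in galactose and codon 18 in the other media. All lay in exon 1, 55 to 56 nt from the annotated 5′ end of the transcript and 175 to 176 nt before the end of the exon. The region made up 6.54% of the 1559 nt of the canonical mRNA, and no other place on NFKBIA was listed in any medium. Of 21 annotated NFKBIA transcripts, the site was coding in 5, in an exon without CDS in 7, intronic in 1 and outside of 8. The lone sites were not preceded by G: the base before was C in galactose and A in normal glucose.

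Few GAPDH regions were centred on a start codon. Of 386 exonic regions of protein coding genes with a canonical start codon, 3 (0.777%) had their middle on it: NFKBIA, RPL35 and ATP6AP2, the latter genes in galactose alone. By single peaks, the low glucose peak of CYC1 was centred on the start codon as well, but its galactose peak was centred 1 nt before it, and so was the region that merged them. A middle within 50 nt of the start codon was common, however, at 91 regions or 23.6%. NFKBIA and PRTN3 were the 2 of the 5 genes inside this window, and LYN, CEBPA and MYC lay outside it.

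LYN had a peak in low glucose alone, and it filled nearly the whole of exon 1. The peak at chr8:55879835-55880096 was 262 nt wide on an exon of 269 nt. Its 5′ edge fell on the annotated first base of LYN, and its 3′ edge lay 7 nt before the exon ended. All of it was 5′UTR, and the sites it holds spanned 162 nt, from position 55879885 to 55880046. The start codon of LYN is in exon 2, and the middle of the peak was 144 nt before it along the mRNA.

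No exonic peak of a protein coding gene in low glucose was wider than that of LYN, among 191. Wide peaks belonged mostly to that medium: 35.1% of its exonic peaks exceeded 102 nt, against 8.23% in normal glucose and 8.77% in galactose. A width beyond 101 nt reflects the distance over which sites were merged. An edge on the first base of the gene was found in low glucose for LYN and OAZ2, 2 of 354 peaks of protein coding genes, and in normal glucose (0 of 317) or galactose (0 of 226) for no gene. The middle of the LYN peak was 5′UTR in 2 of 4 annotated transcripts and outside of the other 2.

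CEBPA was also listed in low glucose alone, with a peak inside the reading frame. The gene has a single exon, and the peak at chr19:33301756-33301891 covered CDS nucleotides 524 to 659, or codons 175 to 220 of 358. The sites spanned 36 nt in codons 192 to 203, the C-rich run in capitals above. C made up 53.7% of the peak, and its 136 nt were more than those of most low glucose peaks, as 26 of 191 were wider. The region encodes the middle of the protein, upstream of the basic leucine zipper, and was 5.23% of the 2601 nt of the mRNA.

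On the opposite strand of CEBPA an unnamed lncRNA (ENSG00000267727) is annotated at chr19:33301279-33301940, and the list entered the CEBPA peak for it too. Its exons held 77 of the 136 nt of the peak and 27 of the 36 nt spanned by sites. The lists give no strand, so the mRNA and the lncRNA cannot be told apart as the bound RNA.

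MYC had a peak in low glucose alone, and it lay upstream of the start of the canonical MYC mRNA. The lone site was position 127735606 in the peak at chr8:127735556-127735656, a C preceded by C. It was 172 nt downstream of the first base of the gene as annotated, but 625 nt before the first base of the canonical transcript (MYC-206). Of 15 annotated transcripts, the site was 5′UTR in 2 (MYC-201 and MYC-203), CDS in 1 (MYC-208), and outside of 12. None of the 3721 nt of the canonical mRNA was in a peak in any medium, its coding exons and 3′UTR included. A middle 100 nt or more before the canonical transcript was seen in 7 of 386 exonic regions (1.81%).

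The MYC peak was also entered for CASC11, a lncRNA transcribed from the opposite strand across chr8:127686343-127738987. The peak was in an intron of CASC11, and 0 of its bases were in a CASC11 exon.

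PRTN3 was the gene listed in normal glucose and galactose but not in low glucose. In galactose it lay at chr19:840946-841047 (102 nt), with sites spanning positions 840996 and 840997, and in normal glucose at chr19:840945-841045 (101 nt), with the site at 840995. The peaks shared 100 nt. Both peaks were centred on the annotated 5′ end of the mRNA: the middle was 3 nt before the annotated first base (840999) in galactose and 4 nt before it in normal glucose. Both sites were thus just outside of the annotated transcript, and the base before the normal glucose site was A.

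The annotated 5′UTR of PRTN3 is 10 nt long, so the start codon begins at 841009, 13 nt after the middle of the galactose peak and 14 nt after the site in normal glucose. The peaks included all 10 nt of the 5′UTR and 37 to 39 nt of the CDS (codons 1 to 13), and 53 to 54 nt fell upstream of the annotated gene. The TATAA in capitals above is in this upstream part, at 840968 to 840972, 31 nt before the annotated first base. TATAA was found on either strand in 7176 of 35116 RefSeq promoters of GRCh38 (20.4%), taken from 250 nt before to 50 nt after each gene start. The PRTN3 and CEBPA promoters held it on the strand of the gene and the NFKBIA promoter on the other strand. No value is given here for LYN and MYC. Middles 1 to 10 nt before the canonical 5′ end were found in 20 of 386 exonic regions (5.18%), with the 3 media pooled. By single peaks, a middle at any distance before that end was more common in galactose, at 17.4% of 109 peaks. In normal glucose it was 7.05% of 156 peaks, and in low glucose 7.57% of 185.

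**Figure D1:**
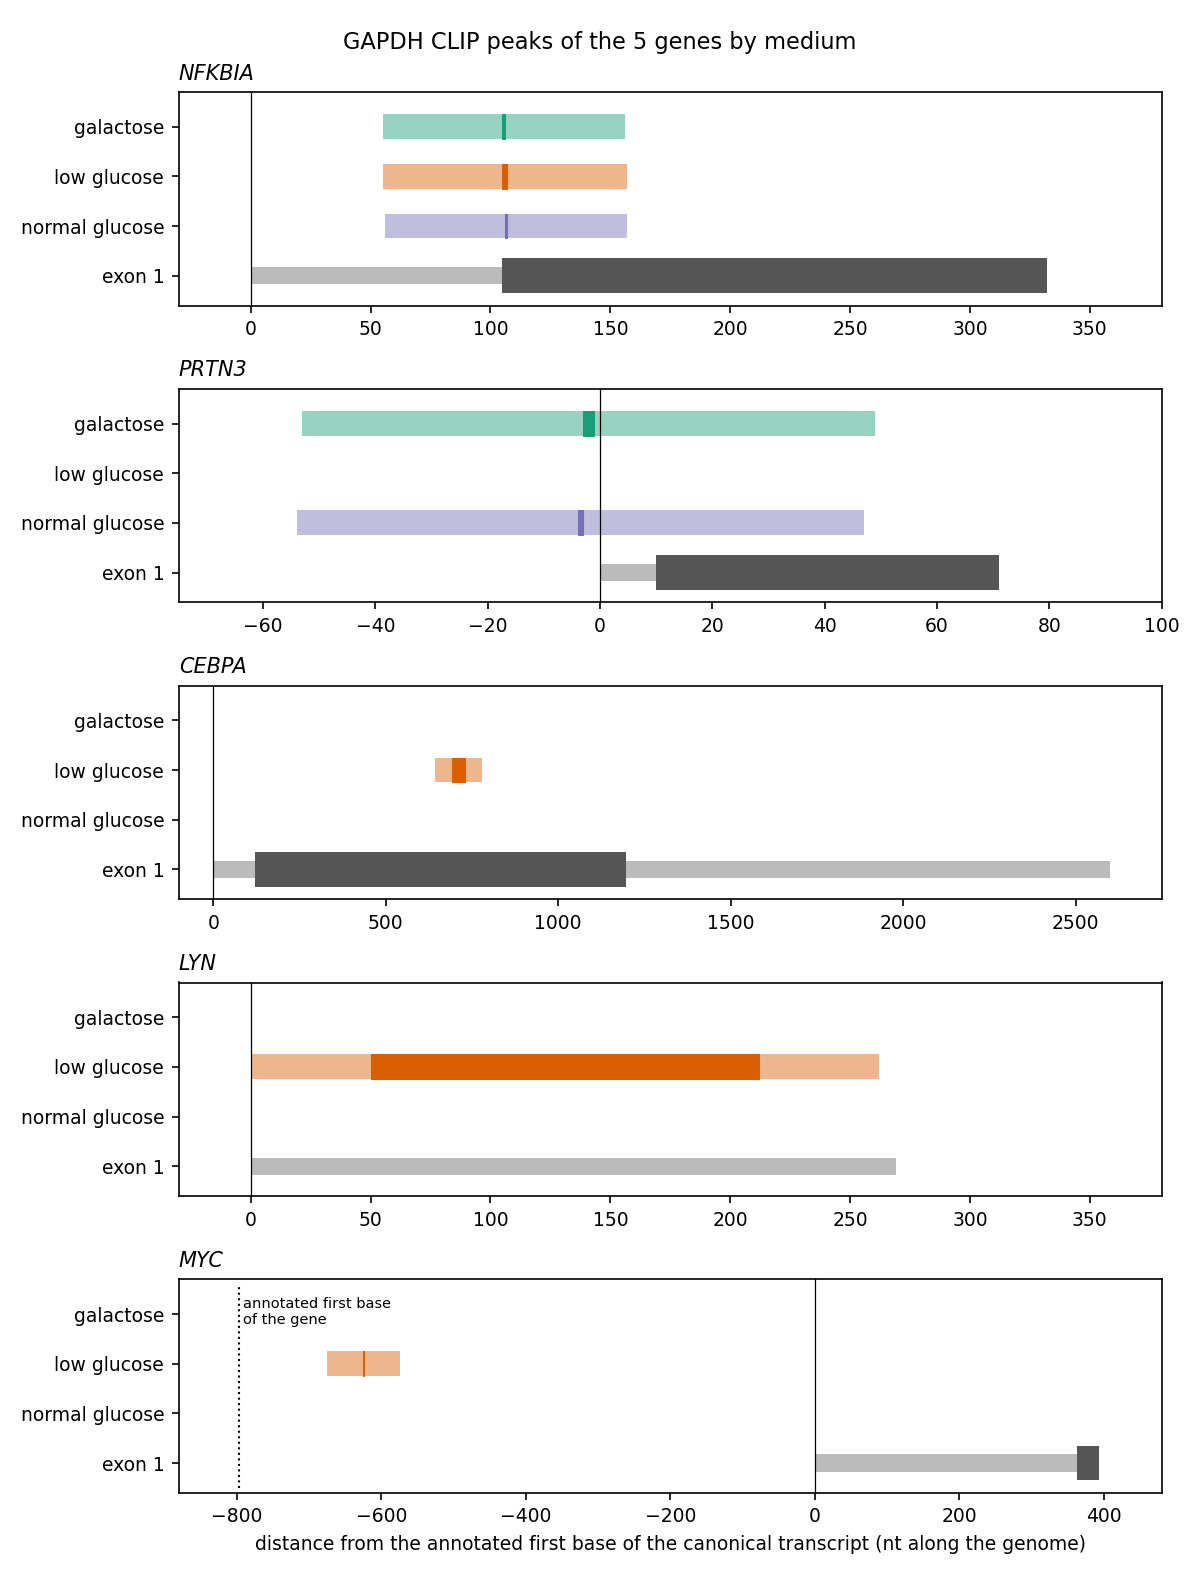
Peaks of the 5 genes in each medium. The horizontal axis gives the distance in nt along the genome from the annotated first base of the canonical transcript, in the direction of the gene, and differs in range between panels. Pale bars are the peaks, dark bars the stretch spanned by crosslink sites, and the lowest row shows exon 1 of the canonical transcript with the CDS as the thick part. The NFKBIA sites sit on the start of the CDS in all 3 media, the PRTN3 sites just before the first base, and the MYC peak between the first base of the gene (dotted line) and that of the canonical transcript.

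By region of the transcript, 5 of the 8 peaks were placed in the CDS (NFKBIA in 3 media, CEBPA and MYC) and 3 in the 5′UTR (LYN and PRTN3 in 2 media). The rule behind this took all transcripts of a gene, put CDS before 5′UTR, and assigned a middle beyond the end of a gene to that end. It settled 2 of the 5 genes: PRTN3 is counted as 5′UTR although its middle is outside, and MYC as CDS because of MYC-208 alone. No peak of these genes was placed in a 3′UTR. Few exonic peaks lay there at all: 7.59% of 158 peaks in normal glucose, 5.76% of 191 in low glucose, 1.75% of 114 in galactose. The CDS held 67.7% of exonic peaks in normal glucose, 56.0% in low glucose and 43.0% in galactose. The 5′UTR held 24.7%, 38.2% and 55.3%, in the same order. Placement in the CDS was thus common among exonic peaks and does not set these genes apart. The 8 peaks are too few to compare with these shares, and the NFKBIA peaks among them overlap.

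AU-rich elements were looked for both in the mRNAs and in the peaks. The 3′UTR held AUUUA 8 times in LYN, 6 times in MYC, 3 times in NFKBIA and 1 time in CEBPA, and 0 times in PRTN3, searched on the mRNA strand. Of 19550 canonical 3′UTRs, 13191 (67.5%) hold it at least 1 time, and the median is 2. None of the 8 peaks contained AUUUA, and neither did most exonic peaks, with the motif in 3.16% of those in normal glucose, 2.09% in low glucose, 2.63% in galactose.

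The peaks were GC-rich to unequal degrees. NFKBIA had 80.4% GC in low glucose and 80.2% in each of the other media. The median of exonic peaks was 66.3% in low glucose, 60.4% in normal glucose, 68.2% in galactose. A higher GC content than that of NFKBIA was found for 8 of 158 exonic peaks with normal glucose, 16 of 191 with low glucose, and 9 of 114 with galactose. LYN (78.2%, exceeded by 21 of 191 peaks) and CEBPA (77.2%, exceeded by 27) were also in the upper part. MYC at 61.4% was below the low glucose median, with 134 peaks above it. PRTN3 was near the galactose median at 67.6%, and at 68.3% was above the normal glucose median, where 33 of 158 peaks exceeded it.

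**Figure D2:**
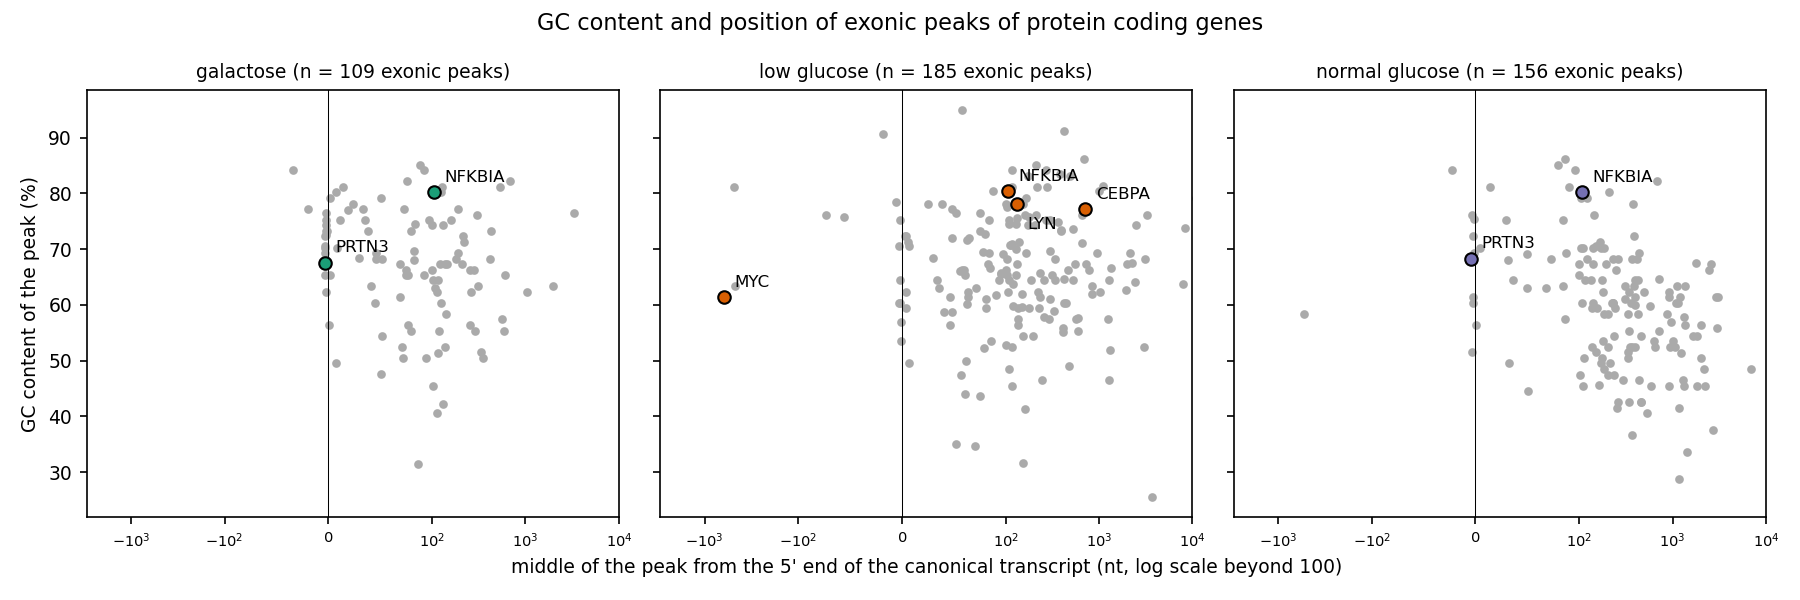
GC content (%) of exonic peaks of protein coding genes against the distance of their middle from the 5′ end of the canonical transcript, in nt on an axis that is linear to 100 and logarithmic beyond, for each medium. Grey points are peaks of other genes, and coloured points the named genes, with 109, 185 and 156 peaks that have such a distance. A few counted peaks lie beyond the ends of the axis and are not drawn. In galactose and normal glucose these include peaks further upstream than that of MYC. NFKBIA lies high in all 3 panels, PRTN3 lies 3 to 4 nt to the left of 0, and MYC is far to the left in low glucose.

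CpG dinucleotides numbered 39 in the 262 nt of the LYN peak and 19 in the 136 nt of CEBPA. In peaks of 101 to 102 nt they numbered 13 to 14 in NFKBIA, 8 in MYC and 5 in each PRTN3 peak. These counts were not scaled to width, and other peaks were not counted. None of the 8 peaks overlapped a tRNA gene, and none contained 30-nt words found more than 1 time in the genome. Each exact word thus points to a single place, and whether the reads were placed uniquely was not tested. None of the 4 peaks with a lone site had a G before it. In normal glucose, where 2 of these 4 were found, G preceded 56.8% of 139 lone sites on the plus strand and 69.3% of 127 on the minus strand. The same shares were 26.2% and 26.0% in low glucose, 20.0% and 28.6% in galactose. RNase T1, which trimmed the RNA in the precipitate, cuts after G, and its part in these shares was not tested.

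**Figure D3:**
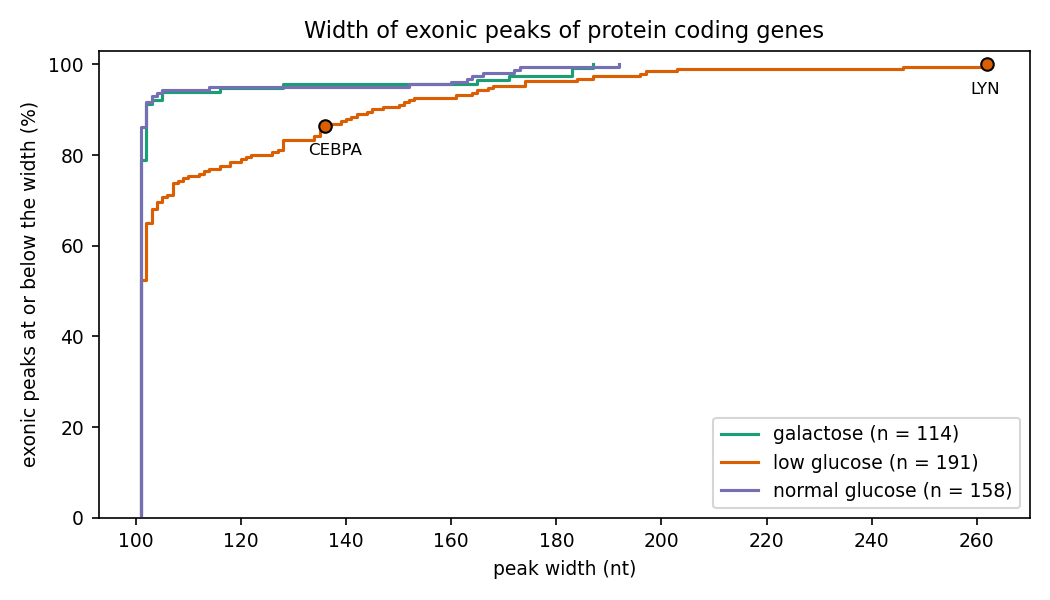
Cumulative share (%) of exonic peaks of protein coding genes at or below each peak width (nt), as 1 line per medium, with 158 peaks in normal glucose, 191 in low glucose, 114 in galactose. LYN at 262 nt and CEBPA at 136 nt are marked on the low glucose line, which rises more slowly than the other lines.

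Where 2 media listed overlapping exonic regions, the lower coordinate of the peak often differed. Galactose and normal glucose had 22 such pairs, of which 7 began at the same base, 5 began a base apart and 10 were further apart. By the lower coordinate, both the NFKBIA pair and the PRTN3 pair of these media began a base apart. For galactose and low glucose the counts were 9, 8 and 18 of 35, and for low and normal glucose 4, 3 and 9 of 16. NFKBIA began a base apart in the former and at the same base in the latter.

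Most genes of the lists of related genes had no peak, as did most protein coding genes. The 6 lists of related genes and the list of myeloid markers held 147 genes between them. Of these, 6 had a peak in normal glucose (4.08%), 8 in low glucose (5.44%) and 5 in galactose (3.4%). The shares among all 20046 protein coding genes were 1.38%, 1.54% and 1.1%, in the same order. Without the 5 genes themselves, 4 of 142 had a peak in normal glucose (2.82%), as in low glucose (4, 2.82%), and 3 in galactose (2.11%), shares somewhat above those of all protein coding genes. No test was made of these differences, and the lists of related genes were chosen with earlier results of these data known. The counts include FCGR2A, whose peak in all 3 media was over a tRNA gene. They also include intronic peaks of MXD3 in galactose, DOT1L in low glucose and JAK2 in normal glucose. Apart from these and the 5 genes, CTSC and MCL1 had a peak in normal glucose, ID2 and LAPTM5 in low glucose, and LAPTM5 in galactose. So few genes do not allow the shares to be told apart from those of all protein coding genes.

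Among 20 genes of NF-kappa-B and its inhibitors, NFKBIA alone had a peak, in all 3 media. Among 22 SRC family kinases and genes of receptor signalling, LYN had its low glucose peak, and JAK2, a cytokine receptor kinase, an intronic peak in normal glucose. Among 28 C/EBP and other myeloid transcription factors, CEBPA was joined in low glucose by ID2, an inhibitor of helix-loop-helix factors, whose peak lay at the very 5′ end of its mRNA, with the middle at nucleotide 3. Among 18 genes of the MYC network, MXD3, a partner of MAX that opposes MYC, was listed in galactose for an intronic peak that is also in the 5′UTR of its neighbour PRELID1. Among 13 proteins of primary granules, PRTN3 was joined in normal glucose by CTSC, the protease that activates PRTN3 and its relatives, with a CDS peak.

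Of 28 genes altered or required in AML, DOT1L, a histone methyltransferase, had an intronic peak in low glucose, and MCL1, an inhibitor of apoptosis, a CDS peak in normal glucose. For the label of the cells, only the presence of markers among the peaks could be looked at. A peak marks binding by GAPDH and not expression, so these counts cannot settle the cell type. Of 19 myeloid markers, FCGR2A had a peak in all 3 media, but over a tRNA gene, and LAPTM5, a lysosomal protein of blood cells, had CDS peaks in galactose and low glucose. The other 17 myeloid markers had no peak. Of 23 markers of T, B, erythroid, megakaryocytic, epithelial and endothelial cells, CDH1 had a peak, in low and normal glucose, which was intronic and over a 5S rRNA pseudogene, and the other 22 had none.

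**Figure D4:**
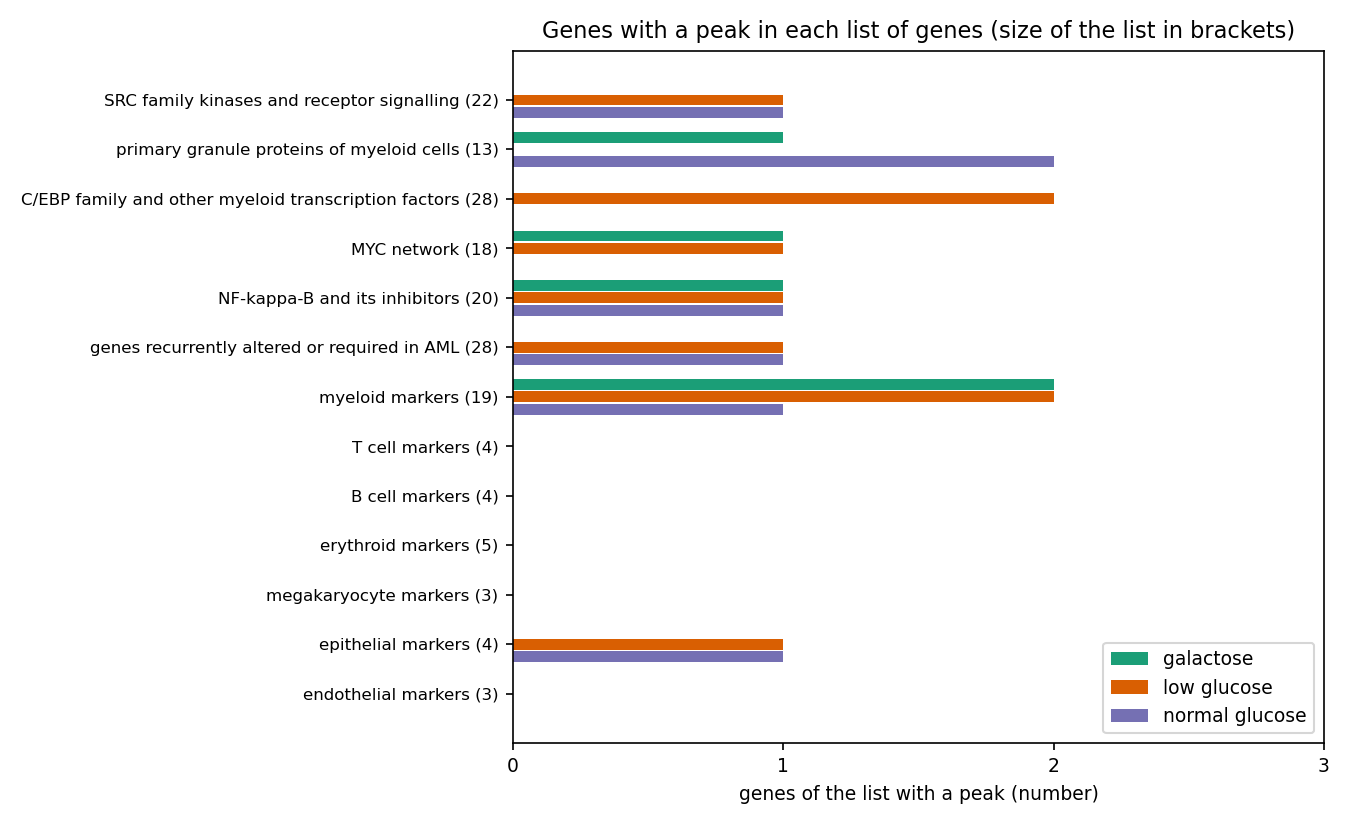
Number of genes with a peak, by medium, in each list of related genes and of cell type markers. The size of each list is in brackets, and each coloured bar is 1 medium. No list has more than 2 genes with a peak in any medium.

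Exonic regions with the same media, the same transcript region and the closest distance from the 5′ end were sought for each gene. For LYN, whose middle was at nucleotide 131 of its mRNA, these were HMGA1 (133), ALDOA (128) and PTP4A1 (121), of 46 candidates. For CEBPA at 712 they were CYB5D2 (719), VIM (660) and GDF15 (651), of 84 candidates. For PRTN3, at 3 nt before the first base, TAGLN2 and ACTB were each at 2 nt before it and ANKRD50 at nucleotide 14, of 8 candidates. NFKBIA had no candidate, as no other exonic CDS region was in all 3 lists, and for MYC the nearest, RPL13A and H3C11, were 671 nt away.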

How the data were processed

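GAPDH CLIP-seq was carried out on MOLM-13 cells in 3 conditions with 2 samples each. According to the methods and the submitters' processing notes, reads were trimmed with cutadapt and aligned with STAR to hg38 (versions not given in the sources used here), crosslink sites were called with PureCLIP, neighbouring sites were merged and isolated sites extended. The authors deposited 1 list per condition, with both samples joined, that gives chromosome, start, end, gene identifier and symbol, with no unit of measurement and no depth.

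Starts were read as 1-based, which the lists do not state, and the site of a peak as what is left after taking 50 nt from each side. Positions given to the base depend on both readings. Identifiers of 445, 619 and 701 entries (galactose, low and normal glucose) were found in GENCODE release 44, and each of these peaks overlapped its gene. Peaks that overlapped by 1 nt or more counted as shared. A peak was exonic where its middle lay in the CDS or a UTR of a protein coding gene. A middle beyond the end of a gene was assigned to that end. Peaks touching a tRNA or small RNA gene were left out of the exonic peaks and regions counted. A canonical transcript is the one GENCODE tags as such. Recurrence was counted over 30-nt words of the genome. Python 3.11.15, numpy 2.4.6, pysam 0.24.0, samtools 1.23.1 and matplotlib 3.10.9 were used, and the placing of peaks was checked on simulated cases. The names in the text are the 5 genes, every listed gene with a peak, and up to 3 most similar regions per gene, of which 1 is not reported here. RPL35, ATP6AP2, CYC1 and OAZ2 were named after their values were seen. The 5 genes and the lists of related genes were chosen with earlier results of these data known. No statistical test was possible. Alternatives changed the overlap, the coordinate base, the transcripts, the order of regions and the features counted.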

Additional observations from a re-analysis of the deposited data

How the results depend on the processing

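The lists hold no counts, depth or strand, so weak sites and the bound strand are beyond these data. No paired analysis was possible because both samples of a condition were joined before deposit, and for the same reason no sample could be left out. Of 43 alternatives, 34 were counted as the same result, 9 as moved and 0 as reversed. A result counted as the same could still differ in value. With genes counted in place of regions, for example, 15.7% were in all 3 lists against 11.0%, and this was counted as the same. With an identical start and end required for sharing, the 5 genes had 8 regions, 0 of them in all 3 lists and 0 in galactose and normal glucose, since the edges of their peaks differed by 1 or 2 nt. With the canonical transcript alone, 1 peak (MYC) lay outside of its transcript. Placed by the region holding most of its bases, 1 peak remained in the 5′UTR and 2 (PRTN3) lay outside. With only protein coding regions counted, without tRNA or small RNA genes, 3.25% of regions were in all 3 lists. Peaks with 1 annotated gene left 3 of the 147 listed genes with a peak in galactose and 5 in low glucose. Leaving out peaks over tRNA genes, chosen after seeing the data, left 4 in galactose, 7 in low and 5 in normal glucose. With 5′UTR put before CDS, MYC was placed in the 5′UTR, for 4 peaks in each, which was also counted as the same result.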
